A study of Aptenodytes patagonicus with 7 samples.

Results

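Transcripts of 8 genes for the making of fatty acids and the control of lipid synthesis were followed in the pectoralis muscle, the muscle of the wing stroke, of juvenile king penguins (Aptenodytes patagonicus). The genes were FASN, ACACA, ACLY, SCD, ELOVL5, ELOVL6, FADS2 and SREBF1, and every probe set that carried one of these symbols alone in the annotation of the array was taken, whatever its value. They made up 8 of the 12920 genes with a symbol of their own, and 18 of the 36897 probe sets. The NI (never-immersed) group still lived on land and had not yet been in the sea, whereas the SA (sea-acclimated) group had made the change to a marine life. There were 4 NI birds (birds 1 to 3 female, bird 4 male) and 3 SA birds (birds 1 and 2 female, bird 3 male). Each was a separate wild animal with 1 biopsy and 1 array. No genetic or drug treatment was compared, and the authors anesthetized the birds with isoflurane for the biopsy. Exact age, feeding state and capture date were not used here, so that acclimation to the sea cannot be told apart from whatever else differed between birds caught at these stages.

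Penguin RNA was hybridized to the Affymetrix chicken array. Each value is the log2 intensity of 1 perfect-match probe per probe set, the one that ranked brightest over the arrays. Such a value depends on how well a chicken probe happens to match the penguin transcript, so transcript levels were compared between birds within a probe set and not between genes. Brightness and percentiles among all probe sets describe the signal of a probe, not the amount of its transcript. Where a gene had several, they are lettered a, b and c from the brightest down. The median of the 7 arrays was 8.58 to 8.59 and single values lay between 6.44 and 15.27. The values describe whole tissue, in which fewer cells of a type and less RNA per cell cannot be told apart. Fibre markers such as the actin ACTA1 were at the top of the signal range, with a median percentile of 99.9 among all probe sets for the 7 probe sets of 6 measured muscle genes. No sample was dropped or imputed in the main comparison.

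Fatty acid synthesis starts from citrate that leaves the mitochondrion. ATP citrate lyase (ACLY) splits it to give acetyl-CoA, acetyl-CoA carboxylase (ACACA) turns this into malonyl-CoA, and fatty acid synthase (FASN) joins malonyl units into palmitate with NADPH as reductant. ELOVL6 lengthens palmitate, SCD places the first double bond, and ELOVL5 and FADS2 elongate and desaturate polyunsaturated fatty acids. SREBF1 encodes a transcription factor that is held in the membrane of the endoplasmic reticulum, released by cleavage, and then activates the lipogenic genes. In birds the liver is the main site of lipogenesis, and flight muscle largely takes up fatty acids made elsewhere.

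None of the 18 probe sets differed between SA and NI birds at an adjusted p under 0.10 (limma, Benjamini-Hochberg over all probe sets), against 394 of all 36897, or 1.07%. Differences are given throughout as SA minus NI on the log2 scale. They follow the labels of the deposited columns, under which 154 probe sets were higher and 240 lower in SA birds. In the text of the study the numbers up and down stand the other way round. The 18 probe sets gave 8 positive and 10 negative differences, from -0.61 to 0.23, with a median of -0.06, beside 0.01 for all probe sets. Their adjusted p-values from limma were between 0.33 and 0.957. An unadjusted p under 0.05 in either direction was reached by 2 of the 18 (11.1%), close to the 10.4% of all probe sets. Both were lower in SA, as were 5.4% of all probe sets at that level. The same 2 were the ones in which no SA bird overlapped an NI bird, again 11.1% of the 18 beside 10.3% of all probe sets in either direction (5.09% with SA lower). Leaving out any bird in turn, SA bird 1 included, left the number called at 0.

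**Figure D1:**
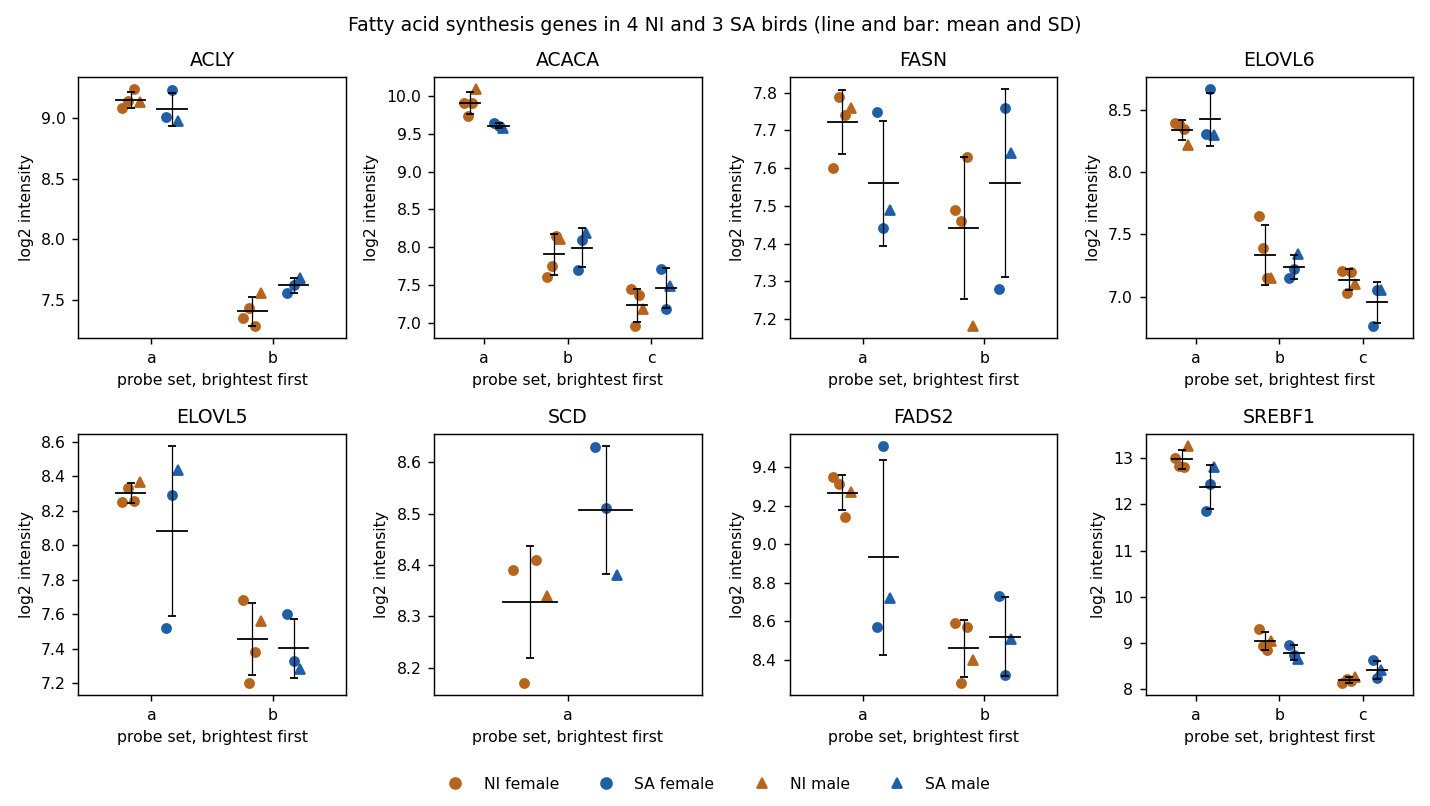
Log2 intensity (vertical axis) of every probe set of the 8 genes in each bird, with probe sets lettered from the brightest down, NI birds in orange and SA birds in blue, females as circles and males as triangles. Horizontal lines are group means with SD bars (n = 4 and 3), and only ACACA a and SREBF1 a show no overlap between the groups.

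In the citrate-splitting step, ACLY had 2 probe sets. ACLY a read 9.08, 9.14, 9.24 and 9.13 in NI birds 1 to 4 and 9.01, 9.23 and 8.98 in SA birds 1 to 3. SA bird 2 lay among the NI birds and the other SA birds just under all NI birds. The difference was -0.07 (standard error 0.11, 95% interval -0.33 to 0.18, limma adjusted p = 0.886). ACLY b read 7.35, 7.43, 7.28 and 7.56 in NI birds and 7.56, 7.62 and 7.68 in SA birds. Here NI bird 4 and SA bird 1 touched, and the remaining SA birds were above every NI bird. Its difference was 0.21 (standard error 0.11, interval -0.04 to 0.47, limma adjusted p = 0.575, exact two-sided permutation p = 0.0857). ACLY a and ACLY b therefore had opposite signs, neither of them past the threshold.

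ACACA, the carboxylase that commits acetyl-CoA to lipid, was read by 3 probe sets. The brightest, ACACA a, stood at 9.91, 9.74, 9.90 and 10.09 in NI birds and at 9.64, 9.60 and 9.58 in SA birds. All SA birds were below all NI birds, with a gap of 0.10 between the nearest pair, and the SA birds lay within a narrow range (mean 9.61, SD 0.0287 over 3 birds) compared with NI (mean 9.91, SD 0.145 over 4 birds). The difference was -0.30, 1.23-fold lower in SA (standard error 0.12, interval -0.56 to -0.04, limma unadjusted p = 0.0268, adjusted p = 0.374). By the exact two-sided permutation test over the 35 ways to label 3 of 7 birds its p was 0.0571, where the smallest possible is 0.0286. ACACA b read 7.60, 7.75, 8.15 and 8.11 in NI birds and 7.70, 8.10 and 8.18 in SA birds. These groups covered almost the same range, and the difference was 0.10 (interval -0.30 to 0.50, limma adjusted p = 0.912). ACACA c, at percentile 10.1 of the array, read 7.44, 6.95, 7.36 and 7.18 in NI birds and 7.71, 7.18 and 7.49 in SA birds. Its difference was 0.23 (interval -0.14 to 0.60, limma adjusted p = 0.724). Only ACACA a carried the lower signal in SA.

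FASN, the multienzyme that builds palmitate, was dim on the chicken array, its brightest probe set being at percentile 18.7 of all probe sets. FASN a read 7.60, 7.79, 7.74 and 7.76 in NI birds and 7.75, 7.44 and 7.49 in SA birds. SA bird 1 lay with the NI birds and the other SA birds below them, for a difference of -0.16 (standard error 0.12, interval -0.43 to 0.11, limma adjusted p = 0.731). FASN b read 7.49, 7.46, 7.63 and 7.18 in NI birds and 7.28, 7.76 and 7.64 in SA birds. In this probe set SA bird 1 was low and the other SA birds were high, so that the order of the SA birds was the reverse of that in FASN a. Its difference was 0.12 (standard error 0.15, interval -0.23 to 0.47, limma adjusted p = 0.862).

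Among the elongases, ELOVL6 acts on the palmitate that leaves FASN. ELOVL6 a read 8.40, 8.39, 8.35 and 8.22 in NI birds and 8.31, 8.67 and 8.30 in SA birds, a difference of 0.09 (interval -0.20 to 0.38) that became -0.03 without SA bird 2. ELOVL6 b ran from 7.15 to 7.65 in NI birds and from 7.15 to 7.34 in SA birds. ELOVL6 c ran from 7.03 to 7.21 in NI birds and from 6.76 to 7.05 in SA birds. Their differences were -0.10 (interval -0.43 to 0.23) and -0.18 (interval -0.45 to 0.09), and limma gave adjusted p-values of 0.883, 0.883 and 0.698 for a, b and c. ELOVL6 b and c were at percentiles 9.23 and 4.55 of the array.

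ELOVL5 elongates polyunsaturated fatty acids. ELOVL5 a read 8.25, 8.33, 8.26 and 8.37 in NI birds, and 7.52, 8.29 and 8.44 in SA birds. A single animal, SA bird 1, stood well below the others, while SA bird 3 was the highest of the 7. The difference of -0.22 (standard error 0.20, interval -0.67 to 0.23, limma adjusted p = 0.797) became 0.06 without SA bird 1. ELOVL5 b ran from 7.20 to 7.68 in NI birds and from 7.28 to 7.60 in SA birds, with a difference of -0.05 (interval -0.38 to 0.28, limma adjusted p = 0.957).

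Of the desaturases, SCD, which makes oleate from stearate, had 1 probe set. It read 8.39, 8.17, 8.41 and 8.34 in NI birds and 8.63, 8.51 and 8.38 in SA birds. SA birds 1 and 2 were above every NI bird and SA bird 3 was among them, a difference of 0.18 (standard error 0.12, interval -0.08 to 0.44, limma adjusted p = 0.683). FADS2 opens the route to long polyunsaturated fatty acids. FADS2 a read 9.35, 9.31, 9.14 and 9.27 in NI birds and 8.57, 9.51 and 8.72 in SA birds. The SA birds split around the NI birds, with birds 1 and 3 below all of them and bird 2 above, and their SD was 0.507 against 0.0940 in NI. The difference was -0.33 (standard error 0.21, interval -0.80 to 0.13, limma adjusted p = 0.67), and it was -0.62 without SA bird 2 and -0.15 without SA bird 1. FADS2 b did not share this split, with 8.59, 8.28, 8.57 and 8.40 in NI birds and 8.73, 8.32 and 8.51 in SA birds, and a difference of 0.06 (interval -0.25 to 0.37, limma adjusted p = 0.935).

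SREBF1, the transcription factor of the group, had the brightest probe set and the largest difference. SREBF1 a, at percentile 98.8 of the array, read 13.00, 12.83, 12.81 and 13.27 in NI birds and 11.86, 12.45 and 12.81 in SA birds. Every SA bird was below every NI bird, but SA bird 3 missed NI bird 3 by only 0.009, and the male was the highest bird in each group. NI birds averaged 12.98 ± 0.211 (SD, n = 4) and SA birds 12.37 ± 0.479 (SD, n = 3), a difference of -0.61, or 1.52-fold lower in SA (standard error 0.22, interval -1.09 to -0.12, limma unadjusted p = 0.0191, adjusted p = 0.33). Its exact two-sided permutation p was 0.0286, the smallest that 35 labellings allow. The difference was -0.35 without SA bird 1 and -0.83 without SA bird 3, with limma adjusted p-values of 0.225 to 0.571 when each bird was left out, and -0.65 (adjusted p = 0.177) with sex as a covariate.

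The other probe sets of SREBF1 did not repeat this pattern. SREBF1 b read 9.30, 8.93, 8.85 and 9.03 in NI birds and 8.96, 8.74 and 8.64 in SA birds. It leaned the same way, but SA bird 1, the lowest by far in SREBF1 a, was the highest of the SA birds here. Its difference was -0.25 (standard error 0.14, interval -0.56 to 0.07, limma adjusted p = 0.623). SREBF1 c read 8.12, 8.22, 8.17 and 8.26 in NI birds and 8.62, 8.23 and 8.40 in SA birds, with SA bird 1 the highest of all 7. Its difference was 0.22 (standard error 0.12, interval -0.05 to 0.49, limma adjusted p = 0.60, exact two-sided permutation p = 0.0571).

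**Figure D2:**
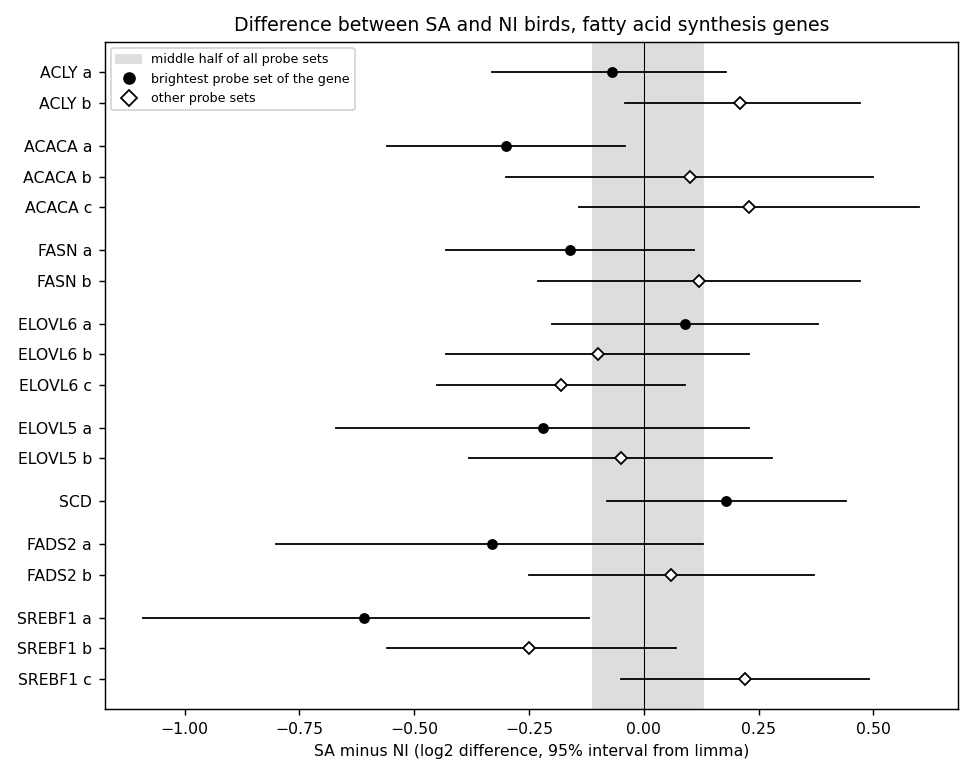
SA minus NI log2 difference (horizontal axis) of each of the 18 probe sets with its 95% interval from limma, with filled circles for the brightest probe set of a gene, open diamonds for the others, and a grey band over the middle 50% of the differences of all probe sets. The intervals of ACACA a and SREBF1 a leave out 0, and none of the differences passed the adjusted threshold.

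Probe sets of one gene disagreed in sign in 6 of the 8 genes. ELOVL5 had both of its probe sets on the negative side, and SCD had only one probe set. Signs were also unevenly spread over intensity. Above the median intensity of the array all 5 probe sets of these genes were negative (ACLY a, ACACA a, FADS2 a, SREBF1 a and SREBF1 b), with a median of -0.30, whereas 47.6% of all probe sets above the median were negative. Below the median 5 were negative and 8 positive, with a median of 0.09. Taking the brightest probe set of each gene, 6 of 8 were negative with a median of -0.19, beside 49.4% negative over all 12920 genes. Averaged over these 8 brightest probe sets, the birds lay between 9.213 and 9.305 in NI and between 8.91 and 9.212 in SA, so that SA bird 2 all but reached the lowest NI bird. These counts describe the set, and no test was made of them.

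The precision of the comparison set what could be seen. The 95% intervals reached 0.25 to 0.48 to either side of the estimate, and together ran from -1.09 to 0.60. In 17 of the 18 probe sets the interval left out a change of 1 log2 unit, a doubling or halving of intensity, in either direction, the exception being SREBF1 a on the lower side. A change of 0.5 in either direction was left out in 12. No background was subtracted from the intensities, and 13 of the 18 probe sets were below the median of the array, 7 of them below its lower quartile, so that their differences hold an unmeasured share of background and may understate those of the transcript. For the 18 probe sets the spread between birds had a median SD of 0.133 among NI and 0.182 among SA birds, where all probe sets had 0.174 and 0.169.

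SA bird 1 was the highest of the 7 birds in 4 of the 18 probe sets and the lowest in another 4. NI bird 1 was also the highest in 4, and NI bird 2 also the lowest in 4. SA bird 1 had a median distance from the SA mean of 0.192 in the 18 probe sets and 0.136 over all. Both were the largest such distances from the group mean among the 7 birds. Without SA bird 1 the median difference of the 18 probe sets was -0.04, and only ELOVL5 a and FADS2 b (-0.04) changed sign.

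The genes around these 8 were described from 5 lists that held 58 measured genes and 104 probe sets. One of the 104 probe sets rose in SA birds and none fell (limma, adjusted p under 0.10), a share near the 1.07% called over the whole array. The median over all 104 was 0.05, with 65 positive and 39 negative. No overlap between the groups was seen in 5 probe sets with SA higher and in 4 with SA lower, where 5.16% and 5.09% of all probe sets were so placed.

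**Figure D3:**
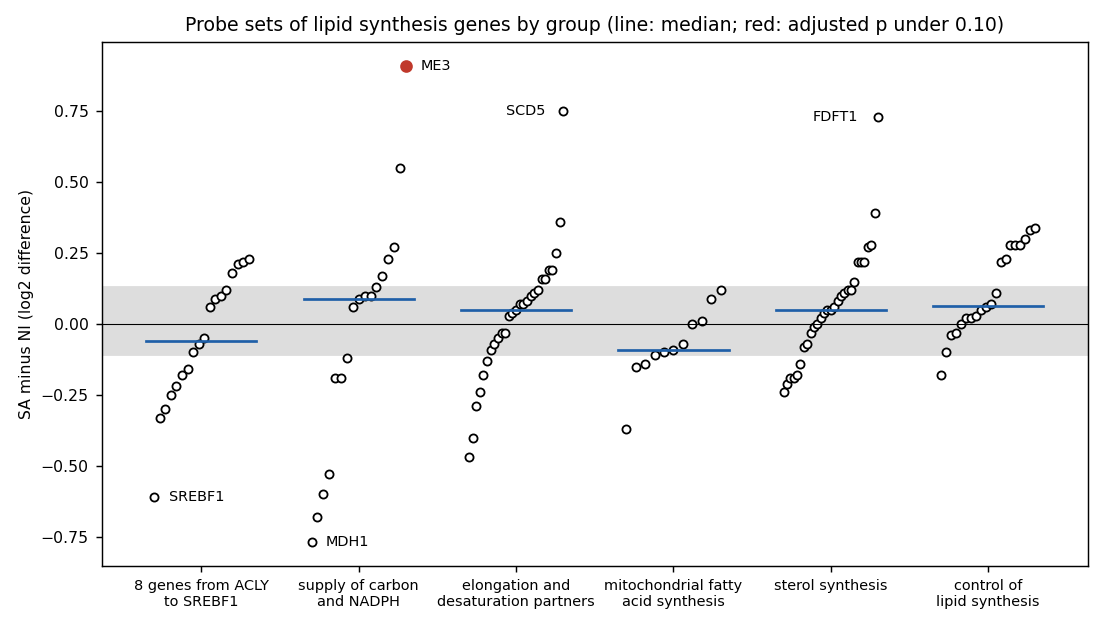
SA minus NI log2 difference (vertical axis) of each probe set of the 8 genes and of the 5 lists around them, sorted within a list, with blue lines for medians and a grey band over the middle 50% of all probe sets. One probe set, that of ME3 at 0.91, passed the adjusted threshold (red), and the medians of the lists lie between -0.09 and 0.09.

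In the supply of acetyl-CoA, malonyl-CoA and NADPH, 10 of 14 listed genes were measured by 17 probe sets, of which 1 rose. ME3, the malic enzyme of the mitochondrion, which makes NADPH from malate, read 9.17, 8.86, 9.00 and 8.55 in NI birds and 9.65, 9.83 and 9.95 in SA birds. The groups were 0.479 apart at the nearest pair, and ME3 rose by 0.91 in SA, or 1.89-fold (standard error 0.16, interval 0.56 to 1.27, limma adjusted p = 0.0488). The call was lost without NI bird 2, SA bird 2 or SA bird 3 (limma adjusted p = 0.15, 0.145 and 0.171) while the difference stayed between 0.80 and 1.01. ME1, the cytosolic malic enzyme usually tied to lipogenesis and named here after its values were seen, ran from 7.96 to 8.37 in NI birds and from 7.82 to 8.18 in SA birds (difference -0.19, limma adjusted p = 0.724).

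Other members of that list lay on both sides without passing the test. Over its 17 probe sets 10 differences were positive and 7 negative, with a median of 0.09. MDH1, the cytosolic malate dehydrogenase, had probe sets without overlap at -0.77 (11.17, 11.58, 11.36 and 11.28 in NI birds against 10.93, 10.29 and 10.52 in SA birds, limma adjusted p = 0.104) and at -0.53 (13.11, 13.02, 13.08 and 12.82 against 12.71, 12.32 and 12.43, limma adjusted p = 0.146). Without SA bird 1 the first of them reached -0.94 (limma adjusted p = 0.0575). ACSS2, which makes acetyl-CoA from acetate, was at -0.60 in its brightest probe set (limma adjusted p = 0.137), also without overlap, while its others lay at 0.23, 0.13 and -0.12. SLC25A1, the carrier that exports citrate from the mitochondrion, was at 0.27 in its dimmer probe set and at 0.06 in its brightest (limma adjusted p = 0.518 and 0.92).

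The elongation and desaturation partners, 14 measured genes with 27 probe sets, had none past the threshold and a median of 0.05. SCD5, a second stearoyl-CoA desaturase, read 9.23, 9.47, 8.86 and 9.43 in NI birds and 9.65, 10.02 and 10.32 in SA birds with one probe set. That made no overlap and a difference of 0.75 (standard error 0.19, limma adjusted p = 0.16), but its others lay at 0.36, 0.05 and 0.03, the value of 0.05 belonging to the brightest. CYB5A, a cytochrome b5 that carries electrons to desaturases, was at -0.47 in its dimmer probe set (limma adjusted p = 0.553), and there at -0.79 without SA bird 1 (limma adjusted p = 0.0825). Its brightest probe set was at -0.29 (limma adjusted p = 0.762). HACD2, a dehydratase of the elongation cycle, was at -0.40 in its brightest probe set and -0.05 in the other (limma adjusted p = 0.582 and 0.961).

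For mitochondrial fatty acid synthesis, a separate route that yields the precursor of lipoic acid, 6 genes with 11 probe sets had a median of -0.09 and none was called. ACSF3, which makes malonyl-CoA inside the mitochondrion, had all SA birds (8.80 to 8.90) below all NI birds (9.05 to 9.45), a difference of -0.37 (limma adjusted p = 0.302). CBR4, MCAT and MECR, which act in that route as reductase, transferase and enoyl reductase, lay at -0.15, -0.14 and 0.12 in the probe sets with the smallest p, and their others lay between -0.11 and 0.01.

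Sterol synthesis was read by 29 probe sets of 17 of 24 listed genes, with none called, 19 positive, 10 negative and a median of 0.05. FDFT1, squalene synthase, the first enzyme of the sterol branch, read 10.68, 10.76, 10.33 and 10.17 in NI birds and 11.06, 11.19 and 11.39 in SA birds. Its groups were apart by 0.295, and the difference of 0.73, 1.65-fold, fell just short of the threshold (standard error 0.17, interval 0.35 to 1.10, limma adjusted p = 0.119). MVD, an early enzyme of the mevalonate route, was at -0.21, and the later enzymes LSS and LBR were at 0.27 and 0.22 in the probe sets with the smallest p, each with overlap between the groups. Their brightest probe sets were both at 0.22, and the remaining ones lay between -0.03 and 0.08.

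The genes that control lipid synthesis, 11 of 14 measured by 20 probe sets, had 16 positive and 4 negative differences, a median of 0.07, and no call. SCAP, which escorts the SREBF proteins to the Golgi for cleavage, was at 0.33 in its brightest probe set (12.69, 12.44, 12.99 and 12.81 in NI birds against 13.11, 13.00 and 13.07 in SA birds, limma adjusted p = 0.46). Its groups were apart by only 0.003, and its other probe sets lay at 0.23, 0.06 and -0.03. MBTPS2, the protease of the second cleavage, was at 0.34 in its brightest probe set, and at 0.10 without SA bird 1, which stood at 9.02 where the other birds ran from 8.11 to 8.34. Its other probe sets lay at 0.05 and 0.07. MLXIP, a glucose-sensing transcription factor, was at 0.30 in its dimmer probe set and at 0.03 in its brightest. SREBF2, the relative of SREBF1 that mainly drives sterol synthesis, was at -0.18 with NI birds at 9.22 to 9.52 and SA birds at 9.09 to 9.31.

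Some markers of other cells in the biopsy also moved between the groups, where 1.07% of all probe sets were called. Fibroblast markers had 8 of 27 probe sets lower and none higher in SA, all 8 of COL1A1, COL1A2 or FN1. Of the 27 differences 21 were negative and 6 positive, with a median of -0.42. Uncalled probe sets ran from -0.20 to 0.33 for COL1A2 and from -0.87 to 0.25 for FN1. Genes without a call were COL3A1 (-2.23 to 0.06), DCN (-1.54), PDGFRA (-0.21), THY1 (-0.08) and LUM (-0.07). The mean over 8 fibroblast genes ran from 9.866 to 10.55 in NI birds and from 8.75 to 9.532 in SA birds. Adipocyte markers, from a cell type that stores fat and also carries lipogenic transcripts, had 2 of 19 probe sets higher. Those were RBP7 (1.13, limma adjusted p = 0.0714) and 1 of PLIN1 (0.58, limma adjusted p = 0.076). The other 3 PLIN1 probe sets were each at -0.12 and the other one of RBP7 at 0.07. Of the 19 adipocyte probe sets 12 were positive and 7 negative, with a median of 0.03. Without overlap 3 were higher and 3 lower, or 31.6% beside 10.3% of all probe sets in either direction. Fat cell genes picked out after their values were seen lay on both sides, none of them called. GPD1, ADIPOQ and LPL were at -0.76, -0.30 and -0.26. FABP4 was at 0.28, and CFD at 0.36 in its brightest probe set and -0.03 in the other. The mean over 11 adipocyte genes ran from 9.675 to 9.814 in NI birds and from 9.79 to 9.831 in SA birds. One probe set each of TNNC2 among muscle fibre markers, TFRC among erythroid and MBP among nerve markers was lower. The means of these lists also did not overlap between the groups. They were 14.25 to 14.32 in NI and 14.00 to 14.09 in SA birds for 6 muscle fibre genes. For 4 erythroid genes they were 10.35 to 10.77 and 9.805 to 10.18, and for 4 nerve genes 9.703 to 9.916 and 9.212 to 9.372. In each list the called probe set had the largest difference, at -0.94, -1.64 and -1.24, and it weighs on the mean. Medians over the probe sets of the lists were -0.02, -0.16 and 0.02. The other probe sets of TFRC and MBP were at -0.06 and 0.11. Among nerve markers NEFL at -0.67 and 1 probe set of PMP22 at -0.93 also had no overlap, uncalled (limma adjusted p = 0.115 and 0.165). The other PMP22 probe sets were at -0.27 and 0.26, and those of NEFM at 0.12, 0.03 and 0.02. No overlap, always with SA lower, was seen in 48.1% of fibroblast, 33.3% of nerve, 28.6% of muscle fibre and 12.5% of erythroid probe sets. The share over all probe sets was 10.3% in either direction. None of the 15 endothelial or 12 leukocyte probe sets was called. ACTA1, among the 6 muscle fibre genes, read 15.27 in all 7 birds, the highest value of every array. A change in it may therefore go unseen. The part of these markers in the values of the 8 genes was not tested.

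Profiles over the 7 birds were compared with that of SREBF1 a, the brightest probe set with the widest range, by the root mean square distance of log2 values centred on their own mean. Of 26107 other probe sets with 1 symbol, the nearest were those of SERTAD2 (0.049), CDH18 (0.101), ITIH6 (0.107), SCARF1 (0.107) and PDE4D (0.119). These too were among the brightest of the array, at percentiles 94.2 to 99.4. Their differences were -0.67, -0.52, -0.51, -0.56 and -0.56, none of them called, and their sign follows from the choice by likeness. Within a distance of 0.15 there were 17 probe sets, 14 of them above the upper quartile of intensity. The 11 other probe sets of these 5 genes had differences from -0.20 to 0.28 apart from 1 of SCARF1 at -0.74 (limma adjusted p = 0.0851). The nearest probe set of the 8 genes was ELOVL5 a at 0.235, in rank 114. SREBF1 b and SREBF1 c were at 0.414 and 0.544, in ranks 6896 and 21254. The distance also counts the size of the differences between birds. A nearly flat probe set can therefore rank ahead of SREBF1 b or c without following SREBF1 a.

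**Figure D4:**
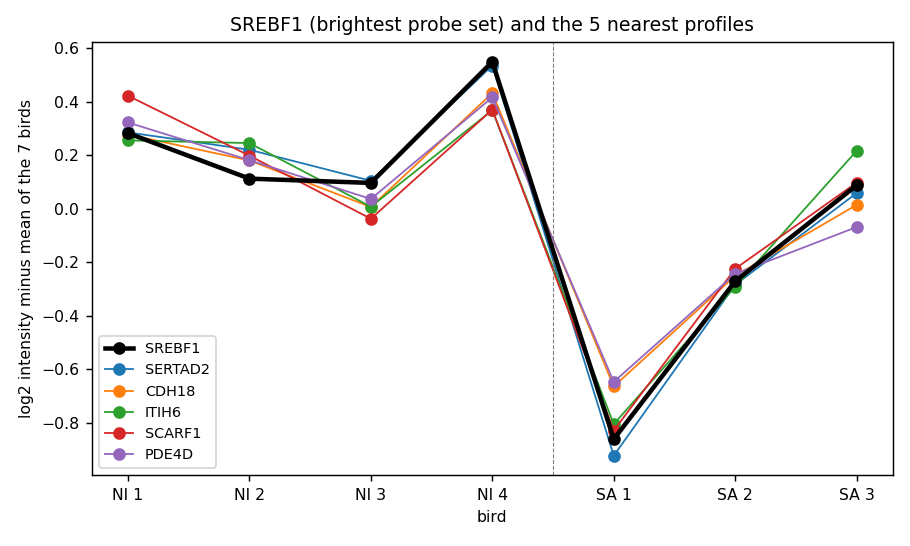
Log2 intensity of SREBF1 a and of the 5 nearest probe sets in each bird, each minus its own mean over the 7 birds (vertical axis). Lines only join the points of one probe set, and the dashed line parts NI from SA. In all 6 profiles SA bird 1 is lowest and SA bird 3 is the SA bird nearest to the NI birds. The 5 were chosen for their likeness to SREBF1 a, so this shared order follows from the choice.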

How the data were processed

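The authors labelled total RNA and hybridized it to Affymetrix GeneChip Chicken Genome Arrays, kept perfect-match probes above background, chose in each probe set the probe with the highest rank sum over the arrays (MAXRS) and applied quantile normalization. The deposited values are log2 intensities of 36897 probe sets in 7 birds. Limma is named, with no version, in the processing notes of the submitters. Probe sets were named from the platform annotation: 26108 carried 1 symbol, 171 several and 10618 none, and those with several or none were not used as members. Of the members, 7 are also named in the king penguin annotation, where FADS2 was not matched.

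Under R 4.3.3, limma 3.58.1 compared SA with NI (lmFit and default eBayes, with 5 residual and 4.34 prior degrees of freedom) over all probe sets, with Benjamini-Hochberg adjustment and a threshold of 0.10. Exact permutation tests were two-sided. Every probe set of the members was named; from each list of pathway genes, those called and up to 4 others with the smallest p; for SREBF1 a, the 5 nearest profiles. Values of other probe sets of these and of the called marker genes were added after they were seen. So were those of ME1, ACACB, IDH1, GPD1, ADIPOQ, LPL, FABP4, CFD, COL3A1, DCN, PDGFRA, THY1, LUM, NEFL, PMP22 and NEFM. Members and lists were chosen with earlier results of these data known. The fit was tested on simulated data. The alternatives were other normalizations, filters on dim probe sets, other variance priors, weights on arrays, a covariate for sex, a replicate block, removal of single birds, a threshold of 0.05 and the brightest probe set of each gene. Precision is limited by the 7 arrays. The p-values set the difference between the groups against the spread between single birds, which limma moderates with its prior over all probe sets.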

Additional observations from a re-analysis of the deposited data

Results flagged for a closer look

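In the brightest probe set of MECR, an enoyl reductase of mitochondrial fatty acid synthesis, NI bird 3 stood apart at 10.10 from the other NI birds at 9.85 to 9.89. The gap was 0.835 of the range of the 4 birds, above Dixon's 95% critical value for a group of that size. Chance flags about 1 in 20 groups, and 39 groups were looked at.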

How the results depend on the processing

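No probe set of the 8 genes was called in any of the limma fits, and the lowest adjusted p in an alternative was 0.146 (FADS2 a without SA bird 2). Of 312 values of these probe sets in alternatives, 304 kept their sign and side of the threshold. The exception on the threshold was SREBF1 a, whose unadjusted exact permutation p was 0.0286. Many of these values could not have turned in sign. Filters on dim probe sets, other variance priors, the brightest probe sets alone and the exact test leave each difference as it is. Median centring and repeated quantile normalization act on values that were already quantile normalized. Signs turned only when single birds were left out. Differences then ran from -0.15 to 0.03 in ELOVL5 b (0.03 without NI bird 1 and 0.01 without SA bird 3), from -0.40 to 0.06 in ELOVL5 a, from 0.00 to 0.24 in ACACA b, from -0.16 to 0.01 in ELOVL6 b, from -0.03 to 0.15 in ELOVL6 a and from -0.04 to 0.16 in FADS2 b. The median of the 18 was -0.30 without the probe sets below the array median, which leaves 5, and -0.08 to 0.00 with a bird left out.

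Over all probe sets the calls were 175 at a threshold of 0.05, 766 with array weights, and 95 to 487 with a bird left out. When only the brightest probe set of each gene was fitted, 216 of 12920 were called. Median centring and repeated quantile normalization kept the number at 394, as did cyclic loess (147 higher and 247 lower). Of the lists around the 8 genes 2 of 59 were called without the probe sets below the array median, beside 356 of 18449 in all. With a robust prior 2 of 104 were called, beside 406 of 36897. With array weights 5 of 104 were called, beside 766 of 36897, and with a bird left out 0 to 3. With array weights both MDH1 probe sets, SCD5 and FDFT1 passed beside ME3 (limma adjusted p = 0.0324, 0.0696, 0.0628 and 0.047), and ACSS2 passed without NI bird 3 (0.0702). Deviations of birds with the same number correlated at 0.292, -0.0264 and 0.173, and those of birds with different numbers at -0.366 to 0.315. Because deviations from a group mean cancel out within each group, these values cannot decide whether the numbers pair the birds. The replicate block gave 624 calls and 0 among the 8 genes. The causes were not tested.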

Other observations

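ACACB, the acetyl-CoA carboxylase of the mitochondrial surface, whose malonyl-CoA restrains fatty acid oxidation in muscle, was picked out after its values were seen, because its brightest probe set varied more between birds than any probe set of the 8 genes. That probe set read 9.57, 11.26, 10.49 and 12.26 in NI birds 1 to 4 and 10.94, 9.75 and 9.98 in SA birds 1 to 3. The SD was 1.14 in NI and 0.633 in SA, and the difference of -0.68 had an interval from -1.91 to 0.56 (limma adjusted p = 0.767). This spread was not shared by all of its probe sets. One, at a difference of 0.09, covered a range of 0.33 over the 7 birds, and the other, at 0.10, a range of 1.65, where the brightest covered 2.68. IDH1, a cytosolic source of NADPH that was picked in the same way, read 10.85 in SA bird 1 and 9.17 to 10.01 in the other birds, a difference of 0.55 (interval -0.08 to 1.18, limma adjusted p = 0.562).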
